A study of Mus musculus with 5 samples.

Results

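The genes examined were 39 enzymes, regulators and carriers of glycolysis, of glucose and lactate transport and of the pentose phosphate pathway. They were taken by symbol from a list of pathway genes, and each symbol matched 1 row among the 21801 genes of the table. Levels are given as FPKM, fragments per kilobase of transcript and per 1000000 mapped reads, a unit meant to make genes of different length comparable. Comparisons between genes below rest on even coverage along transcripts, which was not tested for the poly-dT cDNA used. Of the 39 genes, 38 had a value above 0 in every library, and Pkm was listed at 0 in all 5.

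The cells were purified mouse neuroepithelial cells (NECs), the dividing epithelial progenitors that build the nervous system, from a study of the developing neocortex. They were labelled as neural progenitor cells, and total RNA of 5 libraries in 1 group, NEC replicates 1 to 5, was sequenced. No genotype, strain, treatment, age or marker used for the purification is stated in the sources used here, and no label ties a replicate to its own animal or culture. The p-values therefore speak only of variation among these 5 samples, which may be technical. The design has no second group, and the comparisons it allows are between isoform genes within a step, between a gene and a fixed level, and between libraries. The 8 neural progenitor markers all lay above 1 FPKM by limma's moderated test. They were led by Prom1 (88.1 ± 11 FPKM) and included Pax6 (64.6 ± 7.64 FPKM, mean ± SD, n = 5) and Sox2 (11.6 ± 1.72). But 6 of 6 mesenchyme and 5 of 5 surface ectoderm markers, led by Lum (42.6 ± 21.9) and Krt18 (62.3 ± 11.8), also lay above it. Among all 19706 tested genes 52.3% lay above 1 FPKM, and no difference of the marker counts from that share was tested.

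Glycolysis splits glucose into pyruvate and yields ATP in the cytosol. Most of its steps can be catalysed by products of several paralogous genes, which differ in kinetics, in regulation and in the tissues that use them. Pyruvate is either reduced to lactate, which leaves through monocarboxylate transporters, or enters mitochondria through the pyruvate dehydrogenase complex, while the pentose phosphate branch draws off glucose phosphate for NADPH and ribose. Proliferating embryonic cells, neural progenitors among them, are known for a high rate of lactate production.

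FPKM summed to between 747034 and 847625 per library, and the 39 genes held 2.51% to 2.70% of it. The smallest steps between low values placed the total behind the unit at about 20.4 to 28.3, in units of 1000000 reads, so 1 read in a transcript the length of Pgk1's was worth 0.0217 to 0.0302 FPKM. The 10 pairs of libraries correlated across genes with Pearson's r of 0.989 to 0.996 on the log2(FPKM + 1) scale, where genes are not replicates, and no 2 libraries were duplicates. In bulk RNA, fewer cells of a type and less RNA per cell cannot be told apart.

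Most of the pathway was expressed, and much of it at high levels. Of the 38 genes with values, 32 lay above 1 FPKM, 5 below it and 1 was called neither way, by limma with Benjamini-Hochberg adjustment over all 19706 genes tested. In the table as a whole 52.3% of tested genes lay above that level and 41.4% below, and the median level was 25.7 FPKM for the 38 genes against 1.79 FPKM for all. A mean of at least 100 FPKM was reached by 16 of the 38 and by 7.48% of all tested genes, and 4 (Eno1, Ldha, Aldoa and Gapdh) exceeded 1000 FPKM.

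**Figure D1:**
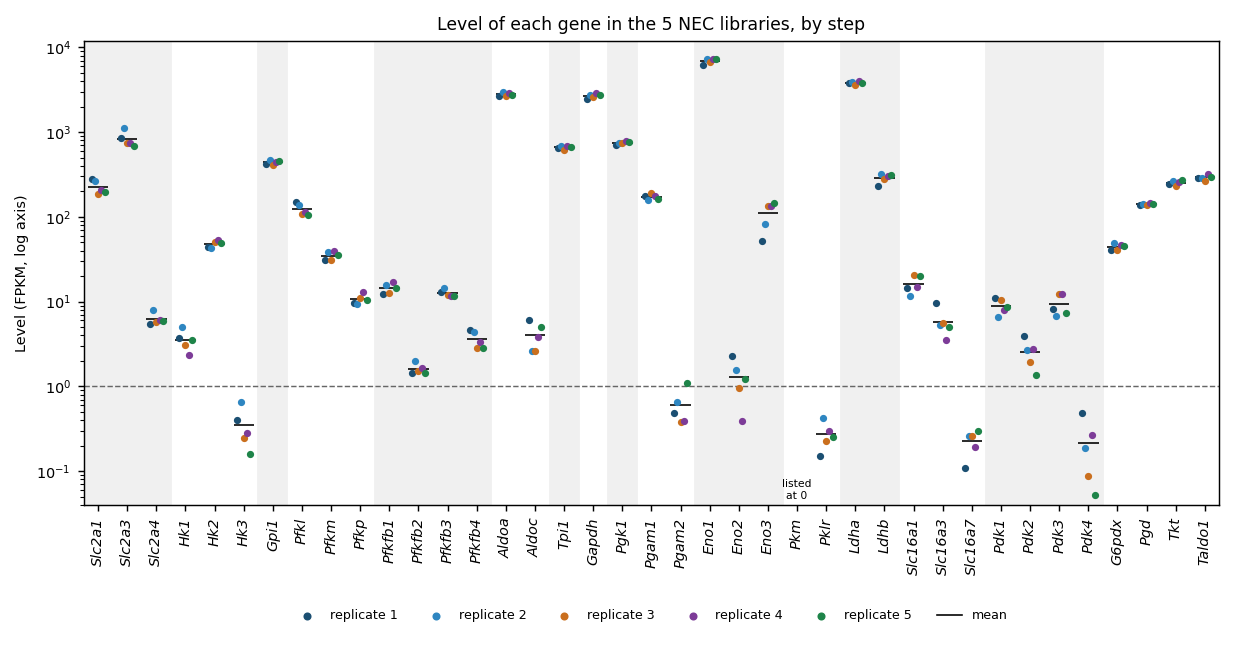
Level of each of the 39 genes in FPKM on a log axis, with a point for each of the 5 libraries and a line at the mean, grouped by step in shaded and unshaded bands; the dashed line marks 1 FPKM. Eno1 stands highest at 6966 FPKM, Hk3, Pgam2, Pklr, Slc16a7 and Pdk4 have means below 1 FPKM, and Pkm is listed at 0.

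Within a step, 1 gene usually carried most of the transcript. All pairs of genes within a step were compared inside each library, 30 pairs in 10 steps, leaving out pyruvate kinase because Pkm was listed at 0. In 28 of the 30 pairs the same gene was higher in 5 of 5 libraries, and in the same number the ranges of the pair did not overlap. Among all pairs of genes with a value, 86.1% had 1 gene higher in every library and 82.4% had ranges that did not overlap, so these counts are near what any pairs of genes give, and the sizes of the differences carry the description. Flipping the signs of the 5 differences in every way, an exact permutation test (two-sided), gave p = 0.0625 for each of the 28 pairs, the smallest that 5 libraries allow, and p = 0.067 after adjustment over the 30 pairs, so no pair could pass 0.05.

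The isoform genes of a step were distinct in coding sequence. Untranslated regions were not compared, and whether the mapping told the reads of these genes apart was not tested. Over 31 pairs of coding sequences from GENCODE M21 the identity ran from 64.5% to 78.3%. The longest stretch shared without a mismatch was 36 bases, between Pfkfb2 and Pfkfb4, and no pair shared a stretch as long as a read of 75 bases. Near-identical stretches in other genes are a separate matter. At 97% identity or more over at least 75 coding bases, 11 of the 39 genes had a near-identical stretch in another gene of GENCODE M21. Gapdh, Pgk1, Eno1 and Gpi1 had several, and Tpi1, Pgam1, Pkm, Ldhb, Slc2a1, Pfkfb2 and G6pdx had 1 each. Genes overlapping at the same locus were not left out of this count, so a match need not be a copy elsewhere. The match of G6pdx is Ikbkg, whose exons overlap it on the opposite strand.

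**Figure D2:**
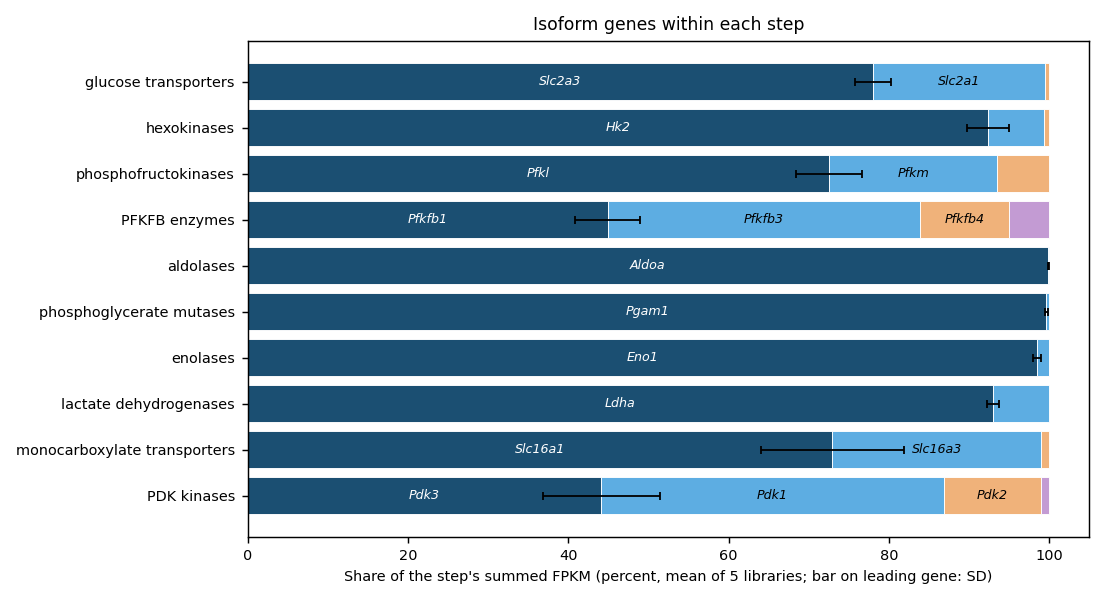
Share of each isoform gene in the summed FPKM of its step, in percent, as the mean of 5 libraries, with an error bar of 1 SD on the leading gene. Aldoa, Pgam1 and Eno1 make up nearly the whole bar of their steps, while the PFKFB enzymes and the PDK kinases are split mainly between a pair of genes; segments without a label belong to the lower genes of the step.

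Glucose entry was carried at the transcript level by Slc2a3, which encodes GLUT3, a high-affinity glucose transporter best known from neurons and early embryos. Slc2a3 (chr6:122727809-122801640) stood at 852, 1114, 753, 752 and 692 FPKM in replicates 1 to 5. Slc2a1, which encodes GLUT1, the transporter of most dividing cells and of the blood-brain barrier (chr4:119108711-119137983), stood at 283, 263, 186, 207 and 195 FPKM. Both were lower in replicates 3, 4 and 5 than in replicates 1 and 2, and their ranges did not overlap.

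Slc2a3 exceeded Slc2a1 by 3.69 ± 0.48 times in FPKM, between 3.01 and 4.23 times in single libraries, and made up 78.1 ± 2.23% of the 3 transporter genes. On the log2(FPKM + 1) scale, which understates differences of low genes, the difference was 1.87 ± 0.19. Slc2a4, the insulin-responsive GLUT4 of muscle and fat, stood at 5.39, 7.88, 5.73, 6.01 and 5.91 FPKM and gave 0.59 ± 0.07% of the sum. It was nevertheless above 1 FPKM (log2 difference 1.83, SE 0.09, limma adjusted p = 2.07e-07).

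The stretch of 75 coding bases in which Slc2a3 and Slc2a1 are most alike shows what separates them, and is printed 5′ to 3′ with capitals at the bases of Slc2a1 that differ from Slc2a3. It covers coding bases 199 to 273 of Slc2a3 and 205 to 279 of Slc2a1, at the junction of exons 3 and 4 (chr6:122739833-122739903 with chr6:122737295-122737298 on the minus strand, and chr4:119132213-119132283 with chr4:119132443-119132446 on the plus strand, GRCm38). Even here 11 bases differ.
Slc2a3: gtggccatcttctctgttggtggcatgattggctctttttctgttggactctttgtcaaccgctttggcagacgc
Slc2a1: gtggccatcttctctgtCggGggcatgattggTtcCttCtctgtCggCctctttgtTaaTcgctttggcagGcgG

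Hexokinases trap glucose in the cell by phosphorylating it. Hk2, the inducible form of growing and insulin-sensitive tissues that binds mitochondria (chr6:82725025-82774454), led the step at 44.2, 42.7, 50.5, 53.4 and 49.5 FPKM. Hk1, the form of most adult tissues and of the brain in particular, stood at 3.75, 4.99, 3.10, 2.35 and 3.56 FPKM, and Hk3, known from blood cells, at 0.40, 0.646, 0.247, 0.282 and 0.158 FPKM. The 3 ranges did not overlap.

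Hk2 gave 92.4 ± 2.66% of hexokinase FPKM and Hk1 6.95 ± 2.30%. The ratio of Hk2 to Hk1 varied from 8.55 in replicate 2 to 22.7 in replicate 4, mostly through Hk1. Hk3 lay below 1 FPKM (log2 difference -0.58, SE 0.07, limma adjusted p = 1.1e-04), on about 10.9 to 50.6 reads per library, and lost that call at a level of 0.5 FPKM (log2 difference -0.17, limma adjusted p = 0.058). Gpi1, the isomerase that follows and also a secreted cytokine in other settings, was steadier, at 427, 470, 409, 449 and 454 FPKM, beside a near-identical pseudogene, Gm1840, at 14.9 ± 1.55.

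Phosphofructokinase commits hexose phosphate to glycolysis and works as a tetramer of liver, muscle and platelet type subunits. The liver type gene Pfkl (chr10:77986947-78010083) was highest at 150.0, 139, 108, 113 and 104 FPKM, followed by the muscle type Pfkm at 31.2, 38.6, 30.7, 39.4 and 35.4. The platelet type Pfkp stood at 9.58, 9.42, 11.1, 13.1 and 10.6 FPKM. Transcripts of all 3 subunit genes thus had values in every library, and their ranges did not overlap.

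Pfkl gave 72.6 ± 4.13% of the sum, Pfkm 20.9 ± 3.01% and Pfkp 6.49 ± 1.37%. The Pfkl share was 78.6% in replicate 1 and 68.3% in replicate 4. Pfkp's value has a limit of its own: 18.05% of its transcript overlaps exons of Pitrm1 (129 ± 15.2 FPKM) on the opposite strand, and since no source states that strand was kept, reads from the overlap cannot be told apart.

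The PFKFB enzymes make and break down the fructose bisphosphate isomer that is the strongest known activator of phosphofructokinase. Pfkfb1, known as the liver form (chrX:150588229-150643878), stood at 12.5, 15.6, 12.7, 16.8 and 14.6 FPKM. Pfkfb3, the form with the highest kinase activity and known from proliferating cells (chr2:11471433-11554077), stood at 12.8, 14.3, 12.0, 11.8 and 11.6 FPKM. Their ranges overlapped, and which was higher differed between libraries.

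Pfkfb1 exceeded Pfkfb3 in 4 of 5 libraries by 0.19 ± 0.21 on the log2 scale (two-sided exact sign-flip permutation test, p = 0.125, adjusted p = 0.129 over the 30 pairs). Pfkfb4 stood at 4.6, 4.37, 2.87, 3.35 and 2.85 FPKM, and Pfkfb2, the heart form, at 1.44, 2.00, 1.5, 1.66 and 1.44. Pfkfb4 gave 11.2 ± 2.2% and Pfkfb2 4.98 ± 0.37% of the sum. Exons of Pfkfb1 overlap those of Apex2 (28.6 ± 4.08 FPKM) on the opposite strand over 3.06% of their length, outside the transcript used here for its coding sequence, and reads of that stretch cannot be told apart.

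The highest levels stood at steps from aldolase onward, though not at all of them: phosphoglycerate mutase summed to only 174 ± 12.6 FPKM. Aldoa, the aldolase of muscle and of most embryonic tissue (chr7:126795234-126800751), stood at 2686, 2986, 2688, 2888 and 2752 FPKM, and Aldoc, the brain form that later marks astrocytes, at 6.14, 2.60, 2.59, 3.83 and 5.02. Aldoa gave 99.9 ± 0.06% of aldolase FPKM, and its excess over Aldoc ranged from 438 times in replicate 1 to 1146 times in replicate 2. The libraries differed mostly through Aldoc, which was highest in replicate 1.

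Tpi1, which interconverts the triose phosphates, stood at 652, 684, 618, 687 and 660 FPKM. Gapdh, the dehydrogenase of glyceraldehyde phosphate (chr6:125161715-125166467), stood at 2474, 2736, 2611, 2924 and 2763 FPKM, and Pgk1, the kinase that makes the first ATP of the pathway (chrX:106187100-106203699), at 712, 743, 745, 786 and 772. The highest library exceeded the lowest by only 1.11 times for Tpi1, 1.18 times for Gapdh and 1.10 times for Pgk1.

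Near-identical copies limit these values. Of other genes in GENCODE M21, 47 match the Gapdh coding sequence at 97% identity or more over at least 75 bases, 44 of them pseudogenes, and 3 match Pgk1. A copy in the table, Gm3839, stood at 65.4 ± 6.54 FPKM beside Gapdh, and Pgk1-rs7 at 208 ± 6.46 FPKM beside Pgk1. How the authors' counting shared reads between copies is not given in the sources used here, so the levels of Gapdh and Pgk1 are uncertain by an amount that was not tested.

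Phosphoglycerate mutase was represented by Pgam1, the brain form found in most tissues, at 179, 157, 189, 176 and 164 FPKM (chr19:41911923-41918660). Pgam2, the muscle form, stood at 0.479, 0.657, 0.379, 0.386 and 1.08 FPKM, on about 4.95 to 15.9 reads per library. It lay below 1 FPKM (log2 difference -0.34, SE 0.09, limma adjusted p = 0.0085), and Pgam1 gave 99.6 ± 0.19% of the step. Against a level of 0.5 FPKM, or with libraries rescaled to 1000000 FPKM, Pgam2 was called neither way (log2 differences 0.07 and -0.22).

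Enolase was dominated by Eno1, and Eno3 had the largest SD of log2(FPKM + 1) of the 38 genes, a scale that understates the spread of low genes such as Pdk4. Eno1, the form of embryonic and most adult tissues (chr4:150236721-150248879), stood at 6236, 7240, 6751, 7377 and 7225 FPKM and was the 3rd highest of all genes in the table. Eno3, the muscle form (chr11:70657202-70662513), stood at 51.9, 83.6, 135, 136 and 144 FPKM, and Eno2, the neuronal form known as neuron-specific enolase, at 2.31, 1.57, 0.962, 0.387 and 1.24. Eno1 gave 98.4 ± 0.51% of the sum, Eno3 1.54 ± 0.52% and Eno2 0.02 ± 0.01%.

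Eno3 varied 2.78 times between replicates 1 and 5, and its SD of log2 values, 0.63, was larger than that of 99.6% of the 856 genes of like level, meaning within 0.5 log2 units of its mean. Eno2 went the other way, highest in replicate 1, and was called neither above nor below 1 FPKM (log2 difference 0.14, SE 0.17, limma adjusted p = 0.44). A near-identical gene, Eno1b, stood at 797 ± 46.3 FPKM beside Eno1, so part of Eno1's level depends on how reads were shared. Eno3 and Eno2 had no copy of that identity.

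The enolases hold the most alike pair of coding sequences examined, Eno2 and Eno3 at 78.3% identity. Their most similar 75 coding bases, 433 to 507 in each gene, are printed 5′ to 3′ with capitals at bases that differ from Eno1. The stretch spans exons 6 and 7 (chr4:150244363-150244374 with chr4:150245115-150245177 and chr11:70659150-70659161 with chr11:70660660-70660722 on the plus strand, and chr6:124766531-124766542 with chr6:124766265-124766327 on the minus strand, GRCm38). Eno3 differs from Eno1 at 9 bases and Eno2 at 8.
Eno1: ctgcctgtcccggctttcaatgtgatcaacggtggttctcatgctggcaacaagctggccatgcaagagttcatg
Eno3: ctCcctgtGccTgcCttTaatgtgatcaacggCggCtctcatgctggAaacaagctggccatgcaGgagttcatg
Eno2: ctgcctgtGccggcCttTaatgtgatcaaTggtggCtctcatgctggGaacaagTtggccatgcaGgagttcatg

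Pyruvate kinase could not be described. Pkm, whose transcripts encode the M1 and M2 enzymes of nearly all tissues outside liver and red cells (chr9:59656368-59679375), was listed at 0 in 5 of 5 libraries, as were 9.61% of all genes in the table. A 0 of this kind can be a failed estimate and is not read as absence. Pklr, the liver and red cell gene, stood at 0.152, 0.428, 0.225, 0.300 and 0.251 FPKM and lay below 1 FPKM (log2 difference -0.66, SE 0.05, limma adjusted p = 3.1e-06), with 24.5% of its transcript overlapping Hcn3 (0.56 ± 0.51 FPKM) on the opposite strand.

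Transcripts for lactate dehydrogenase, a tetramer of A and B subunits, were mostly of the A type. Ldha, whose product favours the making of lactate (chr7:46841475-46855627), stood at 3830, 3900.3, 3577, 4005 and 3791 FPKM. Ldhb, the heart form that favours the use of lactate (chr6:142490249-142507957), stood at 230.4, 318, 281, 303 and 312. Ldhb was lowest in replicate 1, whereas Ldha in that library was in the middle of its range.

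Ldha exceeded Ldhb by 13.4 ± 1.85 times, by 16.6 times in replicate 1 and between 12.2 and 13.2 times in the others, and gave 93.0 ± 0.79% of the sum. Their most similar 75 coding bases are printed 5′ to 3′ with capitals where Ldhb differs from Ldha. They cover coding bases 289 to 363 of Ldha and 292 to 366 of Ldhb in exon 4 of each (chr7:46850222-46850296 on the plus strand and chr6:142498560-142498634 on the minus strand, GRCm38) and differ at 11 bases.
Ldha: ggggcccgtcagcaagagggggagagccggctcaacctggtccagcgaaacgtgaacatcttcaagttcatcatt
Ldhb: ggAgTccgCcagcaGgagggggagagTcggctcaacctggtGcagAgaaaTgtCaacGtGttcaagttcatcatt

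Carriers for lactate stood far below the enzyme that makes it. Slc16a1, which encodes MCT1, a carrier working in both directions (chr3:104638668-104658462), stood at 14.4, 11.7, 20.7, 14.9 and 20.0 FPKM. Slc16a3, which encodes MCT4, the exporter of strongly glycolytic cells (chr11:120948480-120960868), stood at 9.72, 5.25, 5.60, 3.51 and 4.99 FPKM. Slc16a7, which encodes MCT2, the high-affinity carrier of neurons, stood at 0.108, 0.263, 0.263, 0.191 and 0.298 FPKM and lay below 1 FPKM (log2 difference -0.71, SE 0.04, limma adjusted p = 6.2e-07).

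Slc16a1 exceeded Slc16a3 in 5 of 5 libraries, by 1.48 times in replicate 1 and by 2.23 to 4.26 times in the others, and gave 72.9 ± 8.96% of the sum. The Slc16a3 share was 40.1% in replicate 1 and 18.8% in replicate 4. Bsg, the chaperone that brings MCT1 and MCT4 to the membrane, stood at 134 ± 13 FPKM and its relative Emb, the chaperone of MCT2, at 103 ± 3.75.

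The pyruvate dehydrogenase kinases, which switch off entry of pyruvate into the tricarboxylic acid cycle, had no single leader. Pdk1, the form known to respond to low oxygen, stood at 10.97, 6.61, 10.6, 7.93 and 8.67 FPKM, and Pdk3 at 8.09, 6.70, 12.4, 12.3 and 7.41. Their ranges overlapped and Pdk3 was higher in 3 of 5 libraries, by 0.04 ± 0.38 on the log2 scale (two-sided exact sign-flip permutation test, p = 0.812, adjusted p = 0.812 over the 30 pairs). Pdk2, the most widespread adult form, stood at 3.98, 2.66, 1.93, 2.76 and 1.37 FPKM, above 1 FPKM (limma adjusted p = 0.0016) but with no call at a level of 2 FPKM (log2 difference 0.19).

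Pdk4, the form induced by fasting in muscle and liver, stood at 0.479, 0.186, 0.0886, 0.264 and 0.0527 FPKM. It lay below 1 FPKM (log2 difference -0.73, SE 0.07, limma adjusted p = 2.1e-05), and at about 3.98 to 35.8 reads per library its differences between libraries rest on few reads. Of the opposing phosphatases, Pdp2 stood at 19.2 ± 1.82 FPKM and Pdp1 at 1.53 ± 0.33.

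**Figure D3:**
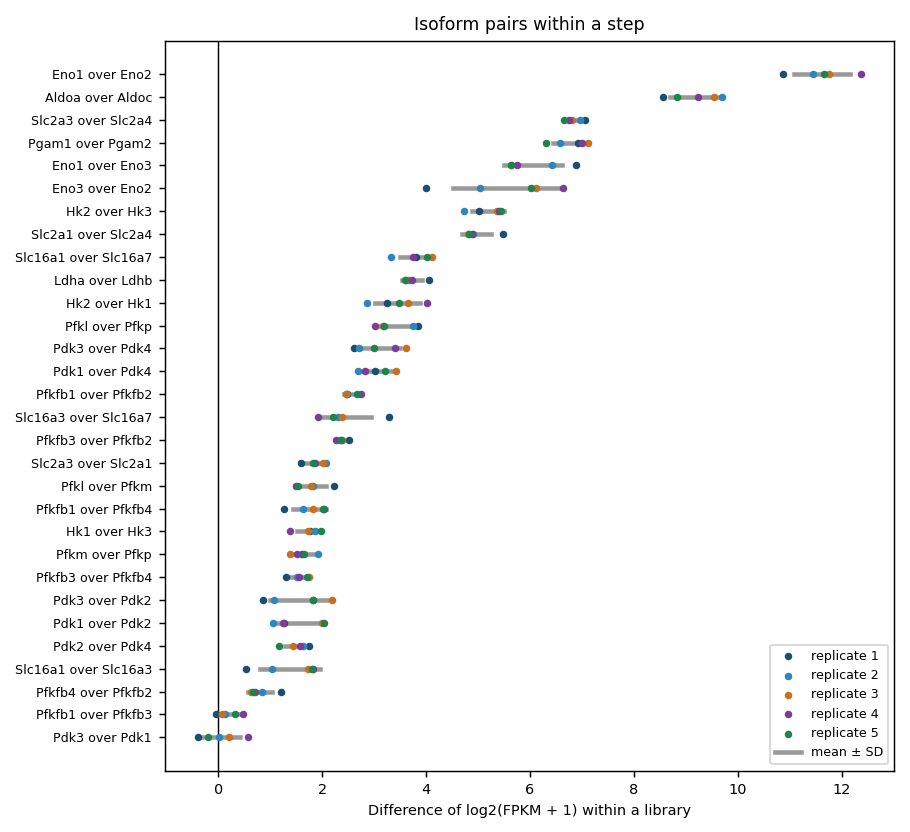
Difference of log2(FPKM + 1) between the genes of each of the 30 isoform pairs, with a point for each library and a grey bar for the mean ± SD. Every pair lies to the right of 0 in all 5 libraries except Pfkfb1 over Pfkfb3 and Pdk3 over Pdk1, whose points lie on both sides of it.

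The pentose phosphate enzymes were even across libraries. G6pdx, the entry enzyme that makes NADPH (chrX:74409483-74429194), stood at 40.2, 49.3, 40.2, 46.1 and 44.9 FPKM, with 4.83% of its transcript overlapped by its near-identical match Ikbkg (31.2 ± 5.89 FPKM) on the opposite strand. Pgd, which yields the second NADPH, stood at 140, 143, 137, 145 and 141 FPKM, and its SD of 0.03 on the log2 scale was larger than that of only 0.53% of the 755 genes of like level. The sugar-transferring enzymes Tkt (247, 263, 232, 255 and 274) and Taldo1 (290.0, 292, 269, 319 and 295) were higher again.

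Along the pathway, the transcript levels of the steps were far apart. Summed over isoform genes, the 10 measured steps from hexokinase to lactate dehydrogenase ran from 52.0 ± 3.48 FPKM for hexokinase to 7078 ± 498 for enolase, an excess of 136 ± 9.40 times. Phosphofructokinase (169 ± 19.3) and phosphoglycerate mutase (174 ± 12.6) came next above hexokinase, and their ranges overlapped, with phosphoglycerate mutase higher in 3 of 5 libraries. Aldolase (2804 ± 132) and Gapdh (2702 ± 169) also overlapped, aldolase being higher in 3 of 5, whereas the other 7 neighbours in the order of levels did not overlap.

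Glucose transport (1066 ± 201) and lactate transport (22.4 ± 4.19), the ends of the chain, varied more between libraries than most enzymes between them. Their coefficients of variation were 18.9% and 18.7%, against 3.81% for Pgk1 and 11.5% for phosphofructokinase, the lowest and highest of the 10 enzyme steps. These levels are of transcripts, and no protein or flux was measured.

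**Figure D4:**
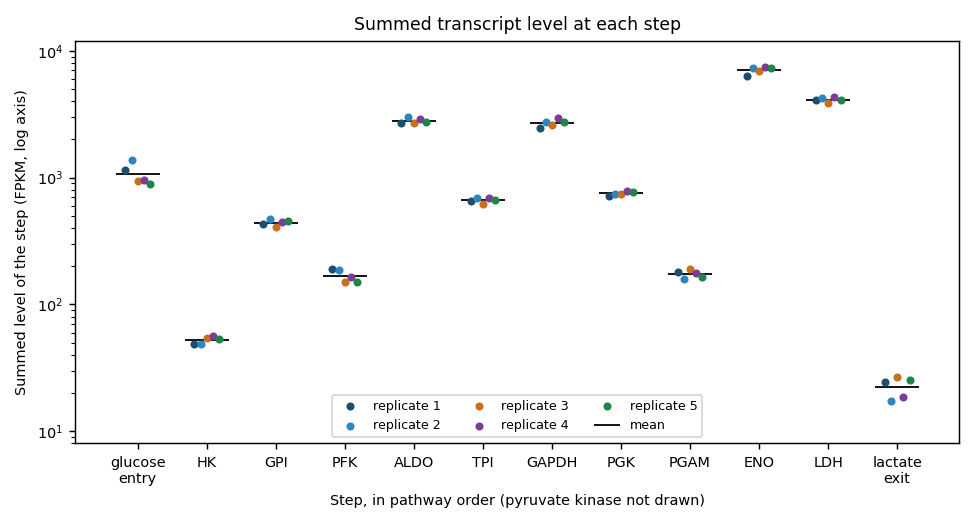
Summed FPKM of the isoform genes of each step on a log axis, from glucose entry to lactate exit in pathway order, with a point for each library and a line at the mean. Hexokinase is the lowest enzyme step at 52.0 FPKM and enolase the highest at 7078 FPKM; pyruvate kinase is not drawn because Pkm was listed at 0.

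Other genes of the pathway were counted from lists outside the 39. Of 63 such genes 62 were matched, and Tigar was not analysed here. Against 1 FPKM the test placed 38 higher and 20 lower, and left 3 without a call, while Fbp1, an enzyme of gluconeogenesis, was listed at 0. The 38 made up 62.3% of those tested, beside 52.3% for all tested genes of the table. The counts of the single lists below are to be read beside that 52.3%, and no difference from it was tested. All 9 genes for the entry of pyruvate into mitochondria lay above the level, from Pdp1 (1.53 ± 0.33) to Pdha1, a subunit of pyruvate dehydrogenase (263 ± 20.8), as did 8 of 9 genes of glycogen and hexose entry, led by the glycogen phosphorylase Pygb (45.4 ± 3.95). The lowest of those 9, the muscle phosphorylase Pygm, was called neither way at 1.30 ± 0.79. Of the 6 gluconeogenesis genes with values 3 lay above and 3 below: G6pc3, the widespread phosphatase, stood at 39.3 ± 3.05 FPKM, while G6pc of the liver was listed at 0.0219 in replicate 3 and at 0 in the others.

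The other enzymes and sugar carriers were divided about the level. Among 11 other enzymes of glycolysis, 5 lay above 1 FPKM, 5 below and 1 neither way, with Bpgm, known for its role in red cells, highest at 65.7 ± 6.27. Among 8 other sugar carriers 2 lay above and 5 below, from Slc2a2 of liver and pancreas (0.0348 ± 0.0608) to Slc2a10 (3.08 ± 0.47). Among carrier chaperones and further carriers 3 of 6 lay above, led by Bsg, and Slc5a1 was lowest, listed at 0.0336 in replicate 1 and at 0 elsewhere.

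In the glycerol and hexosamine branches 3 of 4 lay above the level, from Gpd1 below it at 0.32 ± 0.13 FPKM to Gpd2, the mitochondrial glycerol phosphate dehydrogenase, at 70.5 ± 9.15. Of 8 other pentose phosphate genes 5 lay above and 3 below, with Prps1, which makes the ribose donor of nucleotide synthesis, highest at 122 ± 16.9 and Tktl2 lowest at 0.0113 ± 0.0139.

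The spread between libraries differed among the members. For the 16 members averaging 100 FPKM or more the median SD of log2(FPKM + 1) was 0.09, against 0.11 for all 1474 genes of that level. Of those 16, Eno3, Slc2a3, Slc2a1 and Pfkl nevertheless had an SD above that of 90% of genes of like level. For the 33 members averaging 1 FPKM or more the median was 0.18, against 0.16 for 10983 genes, but which was larger turned with the setting: it was 0.14 against 0.17 with libraries rescaled to 1000000 FPKM, 0.123 against 0.155 without replicate 2 and 0.147 against 0.154 without replicate 4.

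Of the 33, 10 had an SD above that of 90% of genes of like level: Pfkl, Aldoc, Eno2, Eno3, Slc2a1, Slc2a3, Slc16a1, Slc16a3, Pdk2 and Pdk3, a choice made after their values were seen. Replicate 1 was the highest library for 6 of these 10 and the lowest for 1, Eno3, whereas over all 38 members it was the highest for 9 and the lowest for 12. In that library Slc16a3 lay 0.71, Eno2 0.59, Aldoc 0.56 and Pdk2 0.54 above their own means on the log2 scale, and Eno3 lay 0.97 below, at a deviation of -0.97. The 33 genes together deviated from their means by a median of -0.04, 0.06, -0.08, 0.04 and -0.00035 in replicates 1 to 5, so no library was shifted as a whole by more than 0.1.

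Markers of other cell types moved between the same libraries. The 6 mesenchyme markers, all above 1 FPKM, summed to 30.5, 58.0, 120, 98.9 and 98.6 FPKM in replicates 1 to 5. Replicate 1 was also the lowest library for 12 of the 38 members, Eno3 and Ldhb among them. Ldhb was highest in replicate 2, at 318 FPKM, where the mesenchyme sum was 58.0. The 6 neuron markers, led by Tubb3 (61.6 ± 13.1 FPKM), with 5 above the level and Dcx below it, summed to 117, 124, 87.5, 94.5 and 97.9 FPKM. The 5 surface ectoderm markers summed to 92.5, 136, 130, 92.7 and 93.8. Both sums were highest in replicate 2, also the highest library for 11 of the 38 members, Slc2a3 among them. The neuron sum is mostly Tubb3, and the median deviation of the 5 neuron markers averaging 1 FPKM or more was highest in replicate 1, at 0.34 against 0.22 in replicate 2. The neuron markers did not move together. Tubb3, Stmn2 and Map2 were higher in replicates 1 and 2 than in replicates 3, 4 and 5. Gap43 was lower there, at 11.9 and 13.3 FPKM against 23.4, 20.5 and 22.0. The part of these cells in the levels of Eno3, Ldhb, Slc2a3 or any other gene was not tested.

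Muscle, blood, vessel and immune markers were mostly below 1 FPKM or called neither way. Of all tested genes 52.3% lay above 1 FPKM and 41.4% below, and no difference of the marker counts from these shares was tested. Of 5 muscle markers only Acta1 (16.2 ± 2.43 FPKM) lay above 1 FPKM, 3 lay below, and Ckm was listed at 0 in every library, which can be a failed estimate. The part of muscle cells in the level of Eno3, at 110 ± 40.4 FPKM, was not tested. The muscle list summed to 13.0 to 19.1 FPKM. Of 6 erythroid markers 2 lay below 1 FPKM and 4 were called neither way, and their sum ran from 2.92 to 9.61 FPKM, led by Hbb-y at 1.79 ± 1.06. Of 5 endothelial markers Pecam1 (3.32 ± 0.46) lay above, 1 lay below and 3 were called neither way, with a sum of 5.43 to 11.9. The 4 microglia and macrophage markers summed to at most 0.501 FPKM, led by Csf1r (0.118 ± 0.0556), with Aif1 listed at 0.

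**Figure D5:**
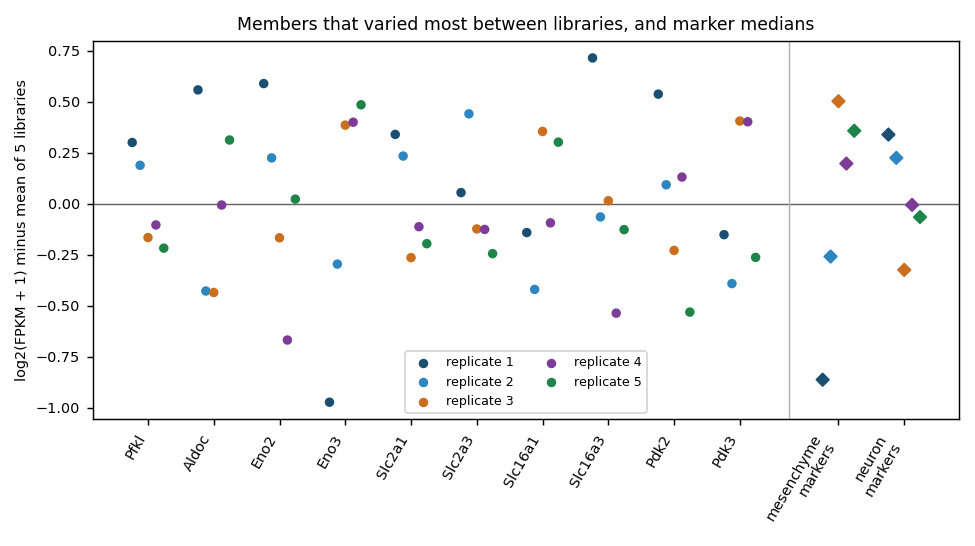
Deviation of log2(FPKM + 1) from the gene's own mean over the 5 libraries, with a point for each library, for the 10 genes with an SD above that of 90% of genes of like level, and, as diamonds, the median deviation of the mesenchyme and neuron markers. Replicate 1 lies highest for 6 of the 10 genes and lowest for Eno3, at -0.97, and it is also lowest for the mesenchyme markers, at -0.86.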

How the data were processed

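The authors deposited FPKM per gene and library, and this is the unit of the 5 columns, whose names carry the replicate numbers of the labels. Per the submitters' processing notes CASAVA 1.8, cutadapt, TopHat2 2.0.11, Cuffdiff 2.2.1 and mm10 were used, and per the labels' protocols poly-dT cDNA was amplified, with no molecular identifiers named, and read in 75 bases. The annotation release, filters and handling of reads with several matches are each not given in the sources used here.

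Count models were not used on FPKM, and depth is approximate: it was read from genes of a single transcript over 800 bases and under 0.15 FPKM, with 200 bases taken off each length because that offset, of 3 tried, gave the sharpest peak. limma 3.58.1 in R 4.3.3 fitted log2(FPKM + 1) of all genes above 0 in at least 1 library and tested the mean against 1 FPKM (two-sided, variance trend on), with calls at an adjusted p under 0.05. The fit was tested on simulated data. For isoform pairs all 32 sign patterns of the 5 differences were enumerated (exact permutation, two-sided). Genes were named by rule: every member, and the highest and lowest of each other list; further ones were chosen after their values were seen, and 1 gene the rule names is not reported here. Members and lists were chosen with earlier results of these data known. Alternatives were pseudocounts of 0.5 and 0.1, rescaled libraries, levels of 0.5 and 2 FPKM, other filters, limma with a robust variance or with no trend, and leaving out each replicate. Coordinates and coding sequences came from GENCODE M21 (GRCm38), the build of mm10; copies were found with blastn 2.17.0.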

Additional observations from a re-analysis of the deposited data

Results flagged for a closer look

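Of 38 genes and 30 pair differences examined for a library standing apart from the other 4, with a gap to its nearest neighbour above 0.71 of the whole range, 3 met the criterion, and chance flags about 1 in 20. Slc2a4 was highest in replicate 2 at 7.88 FPKM, against 6.01 for the next library. Slc2a1 over Slc2a4 was highest in replicate 1 at 5.47 on the log2 scale, against 4.89 for the next. Ldha over Ldhb was highest in replicate 1 at 4.05 on the log2 scale, against 3.72 for the next. Both pair differences share replicate 1, and the pairs share no gene.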

How the results depend on the processing

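The count above 1 FPKM stayed between 30 and 33 over 15 alternatives and the count below between 3 and 7, with 3 below at a level of 0.5 FPKM; leaving out 1 replicate at a time gave 32 above and 5 below each time. Moving the level subtracts another constant from every gene: the result for Eno2 against 1 FPKM becomes -0.445 when taken against 2 FPKM, that for Pfkfb2 against 1 FPKM becomes -0.207 against 2 FPKM, and that for Pgam2 against 1 FPKM becomes 0.0724 against 0.5 FPKM, in log2 units. With 1 replicate left out the difference of Eno2 from 1 FPKM ran from -0.00752 (without replicate 1) to 0.307. Of 270 pair values 268 kept their direction; Pdk3 over Pdk1 ran from -0.0947 (without replicate 4) to 0.149 and was -0.00134 without replicate 3. The median SD of log2 values of the members, 0.18, was 0.116 over members averaging 10 FPKM or more (0.133 for all genes of that mean) and 0.123 to 0.202 with 1 replicate left out. Over all genes 8167 lay below 1 FPKM, but 3495 once a mean of 0.1 FPKM was required, since fewer low genes were then tested. With 1 group no paired analysis was possible because no second group shares the replicate numbers. Depth limits Pgam2, Pdk4, Hk3 and Pklr, which rest on about 3.98 to 50.6 reads per library.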
